A study of Rattus norvegicus with 6 samples.

Results

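Genes of the cell division cycle were followed through single nuclei RNA sequencing of rat colon, in nuclei assigned to enterocytes and in nuclei assigned to T cells. The genes were chosen by name and divided into those of S phase, when DNA is copied, and those of G2 and mitosis, when the copies are separated. Of 43 genes on the list, 41 were found among the 17388 genes of the count tables, 16 of 17 for S phase and 25 of 26 for G2 and mitosis. E2f1 and Ccnb2 were not among the genes of these tables. All animals were wildtype male Wistar rats. Sham rats drank water only. Rats of the placebo and PL8177 groups had 5% dextran sulfate sodium (DSS), a sulfated polysaccharide that damages colon epithelium, in their water for 3 days, then normal water, and were given capsules by gavage for 4 days, either without drug or with 50 µg of PL8177, a peptide agonist of the melanocortin-1 receptor. The sham rats thus differed from the placebo rats both in DSS and in the capsules.

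A cell that enters the cycle first loads the MCM helicase onto its replication origins and then copies its DNA with polymerases that are held by the clamp protein PCNA. It next condenses its chromosomes, builds a spindle from microtubules and kinesin motors, attaches the spindle to kinetochores under the watch of a checkpoint, and divides by a contractile ring. Genes of the first step are switched on by E2F factors, and many genes of the second by the MuvB complex with B-Myb and Foxm1, which binds a short promoter element called CHR (cell cycle genes homology region). Promoters of this kind often also hold CCAAT boxes, which the factor NF-Y binds. In the colon, cells divide in the lower part of the crypts and stop dividing as they move to the surface, whereas T cells divide after they meet antigen.

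The promoters of 4 genes are shown because they hold these elements. They are the genes with most UMIs (unique molecular identifiers, each standing for 1 captured transcript) in enterocyte nuclei that carry, within the 250 bases shown, both CCAAT and CHR (Kif23 and Mki67, for mitosis) or an E2F element (Pola1 and Rrm1, for S phase). The sequences are those of RefSeq on the GRCr8 assembly, 250 bases up to the annotated start, 5′ to 3′ on the strand of the gene, with the elements in capitals. Kif23 lies on the minus strand, chr8:71320585-71320834, Mki67 on the minus strand, chr1:199952594-199952843, Pola1 on the minus strand, chrX:62342356-62342605, and Rrm1 on the plus strand, chr1:166235654-166235903. The counts themselves were made on an earlier assembly, Rnor 6.0, so these positions are not those of the counted gene models.
Kif23: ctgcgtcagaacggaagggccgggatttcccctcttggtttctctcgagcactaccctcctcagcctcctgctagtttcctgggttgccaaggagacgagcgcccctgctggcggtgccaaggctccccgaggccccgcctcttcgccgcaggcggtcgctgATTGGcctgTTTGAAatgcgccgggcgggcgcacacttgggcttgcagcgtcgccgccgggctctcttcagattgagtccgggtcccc
Mki67: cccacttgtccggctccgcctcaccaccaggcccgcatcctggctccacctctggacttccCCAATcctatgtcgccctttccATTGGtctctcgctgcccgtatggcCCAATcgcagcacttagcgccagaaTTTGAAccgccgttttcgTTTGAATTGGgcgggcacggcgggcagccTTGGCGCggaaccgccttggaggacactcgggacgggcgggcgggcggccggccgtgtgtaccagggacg
Pola1: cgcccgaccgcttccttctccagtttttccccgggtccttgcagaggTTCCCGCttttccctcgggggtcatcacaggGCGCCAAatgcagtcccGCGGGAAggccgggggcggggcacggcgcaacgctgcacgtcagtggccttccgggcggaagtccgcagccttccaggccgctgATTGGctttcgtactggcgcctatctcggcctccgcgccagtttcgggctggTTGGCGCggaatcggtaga
Rrm1: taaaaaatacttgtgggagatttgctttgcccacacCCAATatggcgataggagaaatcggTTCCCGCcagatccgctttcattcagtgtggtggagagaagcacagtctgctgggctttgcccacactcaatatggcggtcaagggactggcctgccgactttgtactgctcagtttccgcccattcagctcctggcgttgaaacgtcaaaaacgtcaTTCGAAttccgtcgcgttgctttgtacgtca
In the Mki67 promoter a CHR match and a CCAAT match on the other strand share a base. A longer gene model of Kif23 begins upstream of the start used here.

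Elements were searched on both strands in windows of 300 bases, 250 before and 50 after the start, as CCAAT, as TTTGAA or TTCGAA for CHR, and as TTGGCGC and also as TTCCCGC or as TTCGCGC for E2F. A promoter was given for 12 of the 16 S phase genes and for 22 of the 25 genes of G2 and mitosis. The CHR letters stood in 16 of 22 promoters of G2 and mitosis genes (72.7%) and in 3 of 12 of S phase genes (25.0%), against 19.5% of all 27457 promoters. The E2F letters stood in 9 of 12 promoters of S phase genes (75.0%) and in 5 of 22 of G2 and mitosis genes (22.7%), against 7.97% of all promoters. CCAAT was found in 8 of 12 (66.7%) and 14 of 22 (63.6%), against 37.7% of all, and CCAAT together with CHR in 1 and 10 promoters (8.33% and 45.5%), against 7.83%. Among the 11625 promoters of genes that the count tables also hold, the shares were 14.2% for CHR, 13.5% for E2F, 37.3% for CCAAT and 5.82% for both. A match describes the letters of a window and does not show that a factor binds there.

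Nuclei were assigned to their library by the tag at the start of their names, which gave 3 libraries per treatment: GR12, GR13 and GR15 for sham, GR22, GR23 and GR24 for placebo, and GR41, GR43 and GR44 for PL8177. The labels do not list the rats, so taking each tag as 1 rat is a reading of these names. The enterocyte tables held 304 to 1531 nuclei and 319125 to 4123319 UMIs per library, and the median nucleus held 437 UMIs (GR13) to 2331 UMIs (GR12). The T cell tables held 19 to 91 nuclei and 8070 to 234958 UMIs per library in the 15108 genes that all tables share, apart from GR23 with 685 nuclei and 779009 UMIs. The T cell nuclei of GR23 went against their label. Their 12 T cell markers summed to 205 UMIs per 1000000 UMIs (CPM), against 2450 to 5746 in the other 8 libraries, and their 15 enterocyte markers to 19060, against 2060 to 8943 in the others and 14836 to 31222 in the enterocyte tables. In the enterocyte tables the T cell markers summed to 14.8 to 86.8 CPM (11 of 12 with UMIs, Cd5 at 0). Counts of genes called in T cell against enterocyte nuclei, and shares of UMIs in T cell nuclei, are therefore also given without GR23.

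In every library other than GR23, the genes of G2 and mitosis held a larger share of the UMIs of T cell nuclei than of enterocyte nuclei. The CPM of a library are relative to the UMIs that its nuclei of that cell type held in the 15108 genes shared by all tables. The summed level in enterocyte nuclei was 186, 185 and 137 CPM in the sham libraries, 142, 299 and 133 in the placebo libraries and 299, 220 and 187 in the PL8177 libraries. In T cell nuclei it was 2490, 1115 and 1373 for sham, 1808, 285 and 1464 for placebo, and 1954, 1325 and 1662 for PL8177. The T cell nuclei of GR23 (285) thus stood at the level of the enterocyte nuclei of the same library (299). The S phase genes summed to 106 to 212 CPM in enterocyte nuclei and to 374 to 1176 in T cell nuclei, with 190 in GR23. In sums over nuclei, fewer cycling cells and less RNA per cell cannot be told apart.

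**Figure D1:**
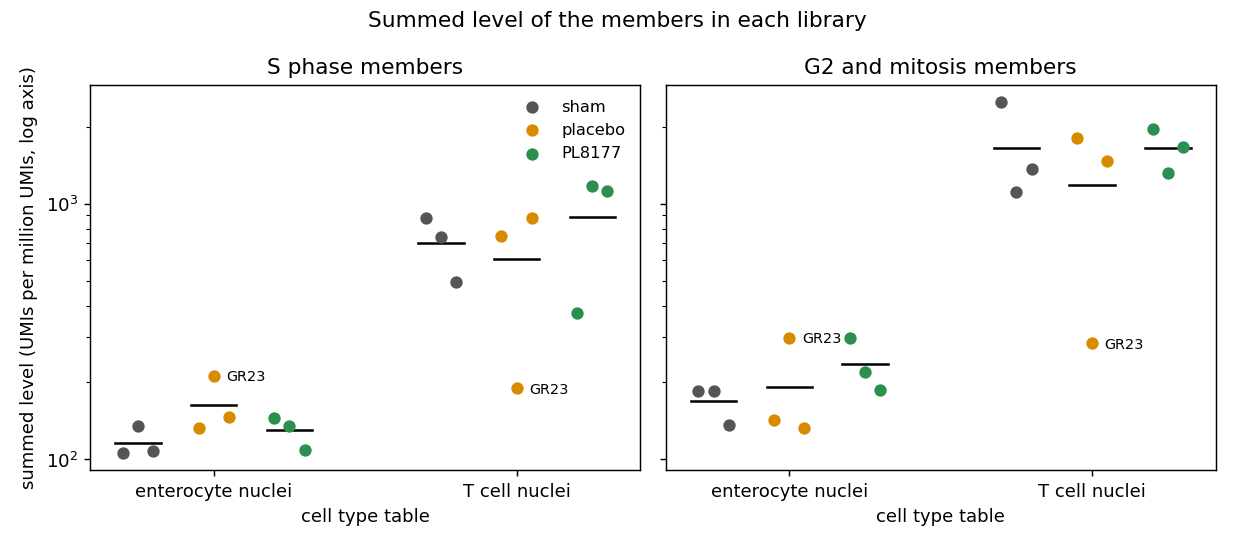
Summed level of the S phase genes (left) and of the G2 and mitosis genes (right) in each library, in UMIs per 1000000 UMIs (CPM) on a log axis, for enterocyte and T cell nuclei of sham (grey), placebo (orange) and PL8177 (green) rats, with the mean of each group as a line. In both panels 8 of the 9 T cell points lie above all enterocyte points, and GR23 lies among the enterocyte points.

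Single genes were compared between the T cell and the enterocyte nuclei of the same library with edgeR's quasi-likelihood test on summed counts, with the library as a block, over 8013 genes. The fold changes given below include GR23; leaving it out moved those of the called genes by -0.22 (Cdc6) to 0.53 (Anln) on the log2 scale. A gene was called where its adjusted p was below 0.05 and its log2 fold change beyond 1.5 in size, the thresholds of the study for T cells. Of the 41 genes, 32 passed the filter on low counts, and 27 of them were called higher in T cell nuclei and 0 lower, while 13.2% of all genes tested were called higher and 9.23% lower. The filter favours genes that are high in T cell nuclei: 10 of the 32 (Anln, Bub1b, Cdk1, Foxm1, Knl1, Mcm3, Mcm4, Mcm6, Ndc80 and Ttk) did not pass it in enterocyte nuclei alone, and Pcna passed it only there. Without a filter on low counts, 33 of 41 were called higher, against 10.4% of all genes, with 40 above 0, and of the 23 genes that passed the filter in enterocyte nuclei alone 18 were called. Because the study assigned cell types from clusters of the same transcripts, the grouping was not independent of these genes, and the p-values give the difference against the spread between libraries only. Without GR23, 30 of 34 were called, among them all of the 27, against 15.6% of all genes, and without both GR23 and the filter 33 of 41, against 11.5%. Without GR12, the library with most T cell UMIs among the rest, it was 21 of 32, against 9.36%.

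Widely used marks of dividing cells are Mki67, which coats mitotic chromosomes, and Top2a, the topoisomerase that untangles sister chromatids. In enterocyte nuclei Mki67 stood at 16.1, 9.14 and 4.14 CPM in the sham libraries, 11.5, 3.22 and 8.77 in placebo and 15.0, 19.8 and 5.38 in PL8177. In T cell nuclei it stood at 149, 124 and 229 for sham, 130, 20.5 and 198 for placebo, and 83.2, 66.2 and 97.7 for PL8177. Each library was higher in its T cell nuclei, with GR23 the lowest among them, and the log2 fold change was 2.88 (SE 0.39, adjusted p = 3.1e-07, edgeR). Top2a stood at 10.3, 18.3 and 10.4 in the enterocyte nuclei of sham, 5.76, 19.3 and 2.92 of placebo and 11.5, 18.5 and 13.4 of PL8177 rats. Its T cell levels were 226, 124 and 153 for sham, 130, 21.8 and 145 for placebo, and 208, 49.7 and 195 for PL8177. Top2a was likewise higher in the T cell nuclei of all 9 libraries, by 2.99 on the log2 scale (SE 0.43, adjusted p = 8.13e-07, edgeR), with a small margin in GR23.

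Among the genes of the kinetochore and its checkpoint, Knl1 is the scaffold on which checkpoint proteins gather. It stood at 1.93, 4.57 and 0 CPM in the enterocyte nuclei of sham, 1.31, 3.22 and 1.17 of placebo and 4.03, 3.75 and 4.03 of PL8177 rats, and at 102, 124 and 76.3, 74.6, 8.99 and 52.7, and 125, 33.1 and 48.9 in the T cell nuclei of the same libraries. All 9 libraries were higher in T cell nuclei, and the log2 fold change was 4.17 (SE 0.55, adjusted p = 2.3e-07, edgeR). Bub1b, a checkpoint protein that restrains anaphase, was also higher in all 9 libraries, by 3.23 on the log2 scale. The checkpoint kinases Ttk (3.22) and Bub1 (3.05), the outer kinetochore protein Ndc80 (2.99), the kinetochore motor Cenpe (2.89) and Cenpf (2.43), a kinetochore protein of late G2, were called as well. Nuf2, the partner of Ndc80, and Cenpp did not pass the filter, with 15 and 7 UMIs in all T cell nuclei.

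The kinesins, motors that move along microtubules, were divided. Kif20b, which acts at the end of cytokinesis, stood at 5.15, 6.86 and 6.21 CPM in the enterocyte nuclei of sham, 4.45, 9.65 and 4.09 of placebo and 16.7, 11.0 and 5.38 of PL8177 rats, and at 132, 0 and 114, 186, 18.0 and 119, and 83.2, 132 and 48.9 in the T cell nuclei. It was higher in the T cell nuclei of 8 of 9 libraries (log2 fold change 3.31, SE 0.44, adjusted p = 1.95e-07, edgeR), and the library in which it had no T cell UMI, GR13, held 8070 T cell UMIs, so that 1 UMI equalled 124 CPM there. Kif11, which pushes the spindle poles apart, was called at 3.14 and Kif15 at 2.52. Kif23, a motor of the central spindle, was not called: its level was 49.6, 34.3 and 24.9 in the enterocyte nuclei of sham, 38.7, 19.3 and 25.7 of placebo and 94.5, 38.8 and 25.5 of PL8177 rats, and 106, 0 and 38.1, 74.6, 24.4 and 39.6, and 0, 99.3 and 97.7 in the T cell nuclei. The ranges overlapped, and the log2 difference was 0.23 (SE 0.38, adjusted p = 0.677, edgeR). Kif4a, a kinesin bound to chromosomes, differed by 1.09 (adjusted p = 0.0485, edgeR) and stayed under the fold threshold.

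Of the other genes of G2 and mitosis, Cdk1, the kinase that drives entry into mitosis, had 15 UMIs in all enterocyte nuclei. It stood at 0.322, 0 and 0 CPM for sham, 0.524, 3.22 and 0.585 for placebo, and 2.31, 1.00 and 2.69 for PL8177 in enterocyte nuclei, and at 29.8, 124 and 0, 18.6, 1.28 and 26.4, and 41.6, 0 and 48.9 in T cell nuclei. It was higher in the T cell nuclei of 6 of 9 libraries (log2 fold change 3.80, SE 0.89, adjusted p = 0.000881, edgeR), although many of these values rest on 1 UMI. Tpx2, which nucleates spindle microtubules (3.11), Aspm of the spindle pole (2.63), and 3 genes of cytokinesis, Anln (2.58), Diaph3 (2.31) and Ect2 (2.25), were called higher. Foxm1, a transcription factor of this gene group, had a log2 fold change of 2.05 with a wide error (SE 1.05, adjusted p = 0.122, edgeR), and of 3.11 without GR23 (adjusted p = 0.000725, edgeR). In all, 18 of the 21 genes of G2 and mitosis tested were called (20 of 22 without GR23), and over all 25 genes, without the filter, the median log2 fold change was 2.45. The cyclins Ccna2 and Ccnb1 did not pass the filter, with 5 and 12 T cell UMIs.

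Of the S phase genes, 9 of 11 tested were called higher in T cell nuclei (10 of 12 without GR23), and over all 16 genes, without the filter, the median log2 fold change was 1.98. Pola1, the catalytic subunit of the polymerase that starts new DNA strands, stood at 25.1, 27.4 and 10.4 CPM in the enterocyte nuclei of sham, 24.9, 28.9 and 22.8 of placebo and 27.1, 28.0 and 9.41 of PL8177 rats. In T cell nuclei it stood at 170, 124 and 38.1 for sham, 261, 27.0 and 198 for placebo, and 41.6, 265 and 244 for PL8177. The T cell level was higher in 8 libraries and slightly lower in GR23, and the log2 fold change was 2.09 (SE 0.36, adjusted p = 2.1e-05, edgeR). Brip1, a helicase that partners Brca1 in repair, was higher in all 9 libraries (3.01, SE 0.42, adjusted p = 6.17e-07, edgeR). The helicase subunits Mcm3 (2.70), Mcm6 (2.62) and Mcm4 (2.30), the repair gene Brca2 (2.35), the origin loading factor Cdc6 (2.09), the chromatin ATPase Atad2 (1.79) and Ezh2 (1.75), which methylates histone H3 in Polycomb silencing, were called too. Of the 27 calls, 6 were lost when 1 library was left out: Mcm3, Mcm4, Brca2, Atad2, Ezh2 and Anln without GR12, and of these also Mcm3 without GR43, Mcm4 without GR22, Brca2 without GR13, and Ezh2 without GR24, GR43 or GR44. Brca1 differed by 1.35 (adjusted p = 0.00988, edgeR), under the fold threshold.

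Pcna, the replication clamp, and Rrm1, the large subunit of the enzyme that makes deoxyribonucleotides, stood apart from these. Pcna had 80 UMIs in all enterocyte nuclei and 4 in all T cell nuclei, at 4.26 CPM in GR12, 18.6 in GR22, 2.57 in GR23 and 0 in the other 6 libraries. It passed no filter in this comparison, and without the filter it was the only gene of the 41 below 0, by -1.17 on the log2 scale (adjusted p = 0.358, edgeR). A level of 0 allows up to 3 UMIs, which is 39.6 to 372 CPM in these 6 libraries, so that a level like those of enterocyte nuclei (0 to 12.9 CPM) was not detectable there. Rrm1 stood at 11.0 to 38.6 in enterocyte nuclei and at 0 to 66.2 in T cell nuclei, with a log2 difference of 0.44 (adjusted p = 0.476, edgeR). Mcm2, Mcm5, Rrm2 and Cdt1 had 5 to 16 UMIs in all T cell nuclei and were not tested.

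**Figure D2:**
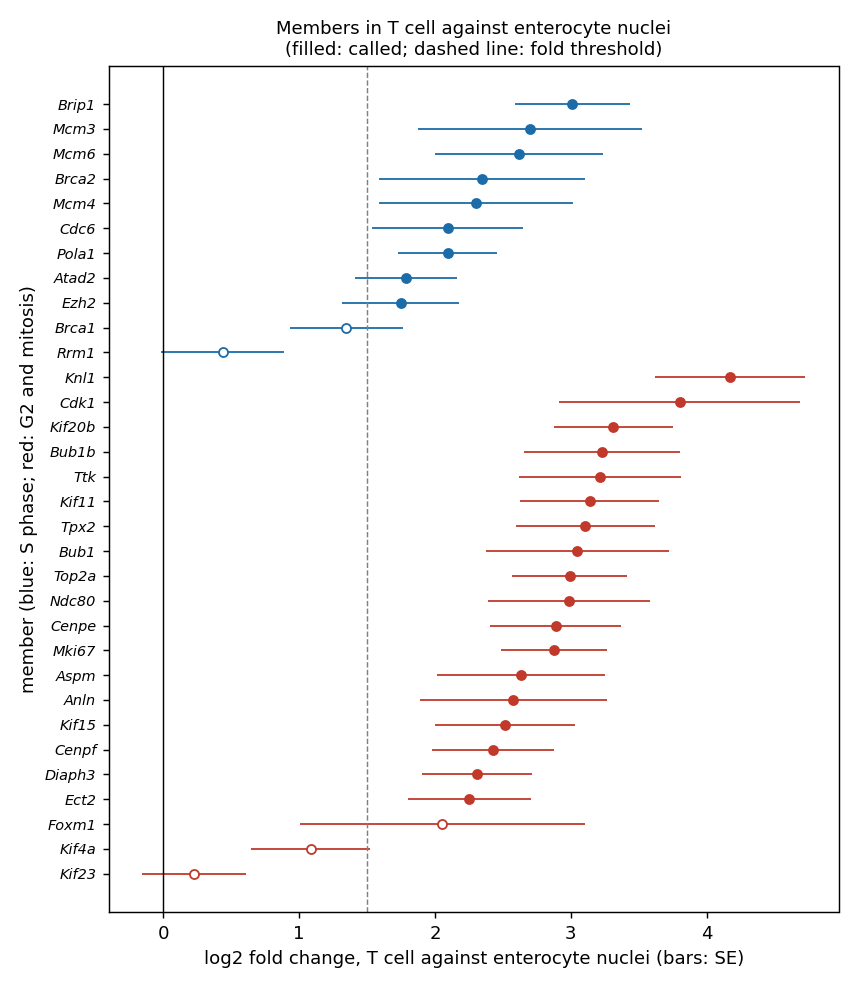
Log2 fold change of the 32 tested genes between T cell and enterocyte nuclei with its standard error (S phase in blue, G2 and mitosis in red). Filled points were called and the dashed line marks a fold change of 1.5 on the log2 scale. The points lie between 0.23 (Kif23) and 4.17 (Knl1), and genes that did not pass the filter, such as Pcna at -1.17 without it, are not shown.

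Markers of other cells moved with this difference. In the T cell tables, the B cell markers summed to 0 to 570 CPM, with the highest sum in GR12, against 3.14 to 36.7 in enterocyte tables, and were higher in the T cell nuclei of 6 of 9 libraries. The myeloid cell markers summed to 0 to 724 CPM, with the highest sum in GR15, against 43.5 to 160 in enterocyte tables, and were higher in the T cell nuclei of 7 of 9 libraries. The list of crypt base and transit amplifying epithelium, which includes Cdca7 and Myb that T cells also use, summed to 124 to 1242 in T cell and 156 to 428 in enterocyte tables. When only T cell nuclei with a T cell marker UMI were kept, and among them those whose enterocyte marker UMIs were not more numerous, 26 of 29 genes were called higher and 0 lower, against 14.3% and 22.8% of all genes, and Kif23 stood at -0.50. Without GR23 it was 29 of 33 called higher, against 13.7% of all genes. The part of these other cells in the difference was not tested further. With library totals in place of TMM factors, which moved the median log2 fold change of all genes from -0.10 to 0.38, 29 of 32 were called, against 18.3% of all genes, and without GR23 it was 32 of 34, against 27% of all genes.

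Cell cycle genes outside the list of 43 were compared between T cell and enterocyte nuclei in the same fit. Of 31 other S phase genes tested, 16 were called higher and 0 lower: Dnmt1, Blm, Prim2, Atr, Dut, Polq, Clspn, E2f7, Wdhd1, Fancd2, Cdc7, Lig1, Chaf1a, Rfc4, Rad51ap1 and Msh6, with the smallest p for the maintenance DNA methyltransferase Dnmt1 (log2 fold change 2.40, adjusted p = 6.84e-07, edgeR). Of 45 other genes of G2 and mitosis, 32 were called higher and 0 lower. They included the condensin genes Ncaph (3.06), Smc2, Smc4, Ncapd2 and Ncapg2, the kinesins Kif24, Kif14, Kif18a, Kif22, Kif2c and Kifc1, and the spindle gene Tacc3 (4.39). Others among them were Troap, Nusap1, Espl1, Ccnf, Prc1, Cdca2, Mybl2, Melk, Cenpa, Plk4, Cks2, Depdc1, Sgo1, Lmnb1, Iqgap3, Cep55, Sgo2, Arhgap11a and Racgap1. Of 24 regulators tested, 5 were called higher, among them Ccnd2 (2.80), Cdk6 (1.69), Wee1 (1.62) and Cdk2 (2.17), and 2 lower, the kinase inhibitor gene Cdkn2b (-2.21) and Ccng2 (-1.65). The background for these 3 groups is the same 13.2% of all genes called higher and 9.23% lower, and the same filter applies. Without GR23, 21 of 36 other S phase genes, 42 of 56 other genes of G2 and mitosis and 7 of 26 regulators were called higher, and 0, 0 and 5 lower, against 15.6% and 15.3% of all genes. With GR23 the median log2 fold changes of these 3 groups were 1.55, 2.25 and -0.14, against -0.10 over all genes. Without GR23 the medians of the 3 groups were 2.03, 2.35 and -0.12.

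Within each cell type, at full depth, nuclei with other genes of G2 and mitosis held a larger share of each such gene's UMIs than of all UMIs. For the median gene this share was the larger part in T cell nuclei, but not in enterocyte nuclei. For each gene, nuclei were taken that held at least 2 other genes of G2 and mitosis. In enterocyte nuclei these held 5.38% to 8.51% of all UMIs, but 48.4% of the Mki67 UMIs (109 of 225), 43.7% of the Cenpf UMIs and 40.7% of the Top2a UMIs. Over the 25 genes the share ran from 9.21% for Kif23 (66 of 717) to 59.6% for Bub1 (34 of 57), with a median of 35.7%. Cdk1 (2 of 15 UMIs) and Kif4a (14.7%) were next to Kif23 at the low end. For the S phase genes the same nuclei held a median of 20.2%, with 10.0% of the Pcna UMIs and 8.57% of the Cdc6 UMIs. Of genes with at least 100 enterocyte UMIs, 8 of 9 of G2 and mitosis and 4 of 7 of S phase had a level over 2 times as high in these nuclei as in the rest, against 1.78% of 8618 genes. After thinning to 500 UMIs per nucleus few such nuclei were left, with 0.885% of the UMIs and 13 of 49 Mki67 UMIs, but with 1 of 39 Top2a UMIs.

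Among T cell nuclei, those with at least 2 other genes of G2 and mitosis held 21.9% to 22.8% of all UMIs and 93.2% of the Mki67 UMIs (82 of 88). The shares ran from 58.3% (Kif23) to 93.3% (Ttk), with a median of 84.2%, and had a median of 57.2% for the S phase genes. Of 3003 genes with at least 100 T cell UMIs, 12.6% had a level over 2 times as high in nuclei of this kind. These values take the T cell nuclei of GR23 with the rest. Without GR23 the nuclei with at least 2 other genes of G2 and mitosis held 48.3% to 50.0% of all UMIs, so that the shares have less room above that level. They held 97.2% of the Mki67 UMIs (70 of 72), 80.5% of the Kif23 UMIs (33 of 41), and a median of 93.2% over the genes of G2 and mitosis and of 71.1% over those of S phase, and 2.23% of 1212 genes had a level over 2 times as high there.

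In enterocyte nuclei with at least 2 genes of G2 and mitosis, T cell markers summed to 0 to 100 CPM (here of all UMIs of these nuclei) and enterocyte markers to 14935 to 27696, against 13.5 to 87.1 and 14400 to 30499 in the other enterocyte nuclei. Within a library, the T cell markers were higher in these nuclei in 4 of 9 libraries, including all 3 of PL8177 (56.3, 100 and 33.0 CPM, against 19.4, 26.6 and 13.5 in the other nuclei of GR41, GR43 and GR44). A T cell marker UMI was found in 18.4% of these nuclei (67 of 365) and in 5.90% of the others (497 of 8417). The enterocyte markers and the surface epithelium markers were each higher in 2 of 9 libraries, the markers of crypt base and transit amplifying epithelium in 6 of 9 and those of smooth muscle in 7 of 9. The part of other cells, in these values was not tested. The S phase genes were higher in 8 of 9 libraries, or in 6 of 9 after thinning to 500 UMIs, and the median UMIs per nucleus in 9 of 9. Among T cell nuclei, the summed level of the T cell markers was higher in the nuclei of this kind in 2 of 9 libraries, while a T cell marker UMI was found in 78.1% of them (75 of 96) and in 28.2% of the others (260 of 922), and without GR23 in 91.8% and 74.2%. B cell markers were found in 19.8% of them (19 of 96) and in 4.34% of the other T cell nuclei (40 of 922), and without GR23 in 24.7% (18 of 73) and 6.92% (18 of 260). GR12 held 14 of the 19, and without GR12 and GR23 it was 8.89% (4 of 45) and 2.80% (6 of 214). The summed level of the B cell markers was higher in the nuclei of this kind in 4 of 9 libraries, and these nuclei were deeper, with a median of 1780 UMIs against 705. The part of B cells in these values was not tested. These values describe nuclei of the same libraries and carry no test.

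**Figure D3:**
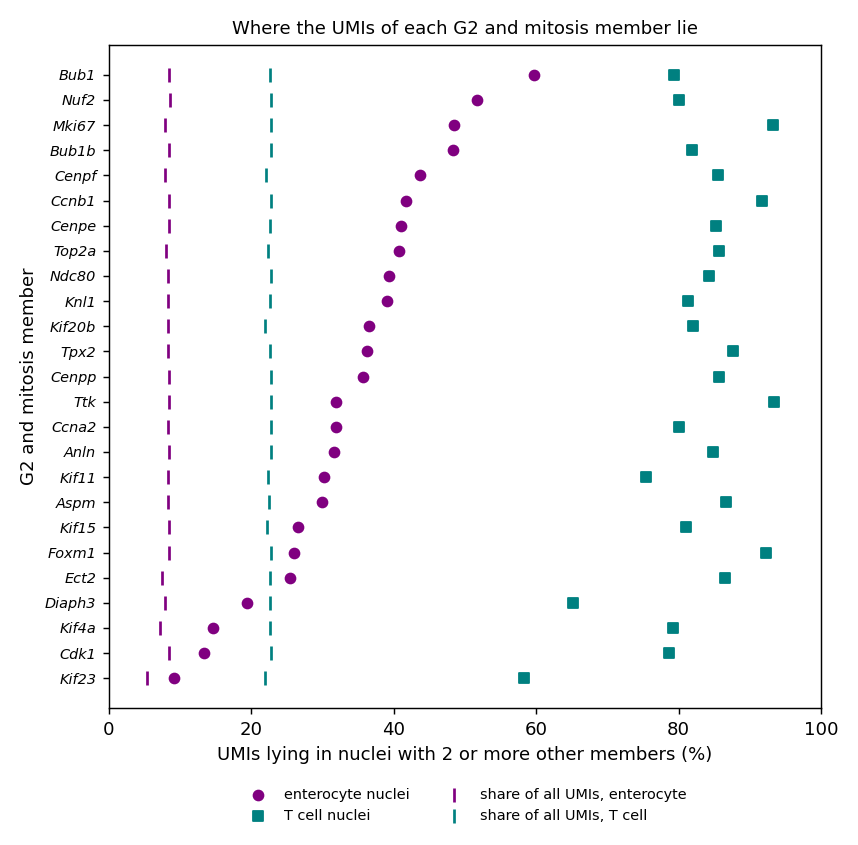
Share of the UMIs of each G2 and mitosis gene (percent) that lay in nuclei with 2 or more other genes of that group, for enterocyte (circles) and T cell nuclei (squares), with the share of all UMIs in those nuclei as short lines. The T cell shares run from 58.3% to 93.3% and the enterocyte shares from 9.21% to 59.6%, all to the right of their lines. The T cell nuclei include those of GR23.

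The treatments were compared within enterocyte nuclei, over 9424 genes in 1 fit, to ask whether DSS or PL8177 changed the level of these genes. None was called in any comparison by edgeR at an adjusted p below 0.05 and a log2 fold change above 0.5, of 23 genes that passed the filter, and 0% of all genes tested were called. DESeq2, which tested all 41 genes, called 0 of them, but 115, 70 and 4 genes of all in sham against placebo, PL8177 against placebo and PL8177 against sham. At an unadjusted p below 0.05, edgeR gave 0 genes higher and 2 lower in sham than in placebo nuclei, where the background was 6.54% and 5.9% of all genes. It gave 5 higher and 0 lower in PL8177 than in placebo nuclei, against 5.5% and 3.75%, and 0 in PL8177 against sham, against 3.09% and 3.5%. The 5 became 1 of 20 tested without GR22 and 1 of 18 without GR24, against 581 of 9035 and 311 of 9025 of all genes. The 5 became 2 of 21 without GR41 and 3 of 21 without GR43, against 385 of 9106 and 424 of 9108. Without GR23 the 5 became 8 of 24, against 349 of 9663. With library totals in place of TMM factors the 5 became 2 of 23, when 233 of all genes were higher and 636 lower. The 5 also became 3 of 22 with doublets left out (513 of 9382 genes) and 3 of 41 by DESeq2 (478 of 16525). After thinning to 500 UMIs per nucleus it was 0 of 6 genes tested (359 of 6108). The 2 lower in sham became 0 of 18 tested, with 1 higher, in nuclei with at least 500 genes, where 484 of 8926 genes were lower and 439 higher. After thinning the 2 became 0 of 6, against 368 of 6108 genes lower. The 2 became 1 without GR13, GR15, GR22, GR23 or GR24 (of 26, 25, 20, 24 and 18 tested). Of all genes, 409 of 9812, 361 of 9799, 526 of 9035, 592 of 9663 and 344 of 9025 were lower in these fits. Without GR12 the 2 became 3 of 21, against 786 of 9098 genes. The 0 higher became 3 of 24 without GR23 (631 of 9663 genes), 1 of 21 without GR12 (865 of 9098) and 1 of 25 without GR15 (482 of 9799). In PL8177 against sham the 0 higher became 2 of 21 without GR12 and 2 of 26 without GR44, against 597 of 9098 and 411 of 9983 genes. The first 2 comparisons share the placebo libraries. With library totals in place of TMM factors the median log2 fold change of all genes moved from -0.02 to -0.16 in sham against placebo and from -0.01 to -0.17 in PL8177 against placebo.

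The 2 genes that were lower in sham at an unadjusted p were of S phase. Pcna stood at 2.25, 2.29 and 0 CPM in the sham libraries, 6.28, 12.9 and 9.94 in placebo and 4.03, 4.50 and 2.69 in PL8177. The measured levels of the 3 groups did not overlap in their order sham, PL8177, placebo, and the means were 1.51 ± 1.31, 3.74 ± 0.943 and 9.70 ± 3.30 (SD, n = 3 libraries each). The level of 0 in GR15 allows up to 6.21 CPM, above all PL8177 levels, so the order of sham and PL8177 was not resolved. Of all genes tested, 14.3% had all sham libraries below all placebo libraries, and 14.1% had all PL8177 libraries below them. The log2 fold change of Pcna was -2.09 in sham against placebo (SE 0.69, unadjusted p = 0.00983, adjusted p = 0.261, edgeR), -0.998 in PL8177 against placebo (unadjusted p = 0.101, edgeR) and 1.09 in PL8177 against sham (unadjusted p = 0.146, edgeR). These levels rest on 0 to 24 UMIs per library. Markers of other cells also differed between these enterocyte libraries. The T cell markers summed to 52.8, 27.4 and 31.1 CPM for sham, 40.6, 86.8 and 66.1 for placebo, and 23.1, 37.0 and 14.8 for PL8177, all placebo libraries lying above all PL8177 libraries. The markers of crypt base and transit amplifying epithelium summed to 224, 229 and 267 for sham, 238, 428 and 318 for placebo, and 196, 268 and 156 for PL8177. The surface epithelium markers summed to 14927, 28276 and 14422 for sham, 15968, 10890 and 11537 for placebo, and 14843, 17136 and 20638 for PL8177. The part of these markers in the levels of Pcna and Ezh2 was not tested.

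Ezh2 stood at 19.0, 2.29 and 10.4 for sham, 29.3, 61.1 and 19.3 for placebo, and 22.5, 23.3 and 13.4 for PL8177 enterocyte nuclei. All sham libraries lay below all placebo libraries, although the highest sham and the lowest placebo level nearly met, and GR23 was the highest of the 9. The log2 fold change in sham against placebo was -1.20 (SE 0.51, unadjusted p = 0.0361, adjusted p = 0.375, edgeR), and it ran from -2.13 without GR12 to -0.82 without GR23.

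Of the 9 S phase genes tested, 7 were below 0 in sham against placebo, 5 in PL8177 against placebo and 2 in PL8177 against sham. Pola1, given above, differed by -0.05 and 0.00 on the log2 scale from placebo in sham and PL8177. Atad2 stood at 13.2, 20.6 and 20.7 for sham, 16.8, 12.9 and 26.3 for placebo, and 16.1, 16.3 and 20.2 for PL8177, and the groups overlapped. Rrm1 stood at 11.3, 22.9 and 18.6 for sham, 11.0, 38.6 and 21.0 for placebo, and 17.9, 14.5 and 18.8 for PL8177, again with overlap, GR23 being the highest. Brca1 stood at 13.5, 32.0 and 18.6 for sham, 6.81, 22.5 and 10.5 for placebo, and 15.6, 13.0 and 21.5 for PL8177. Its log2 fold change of 1.05 in sham against placebo had an unadjusted p of 0.066 (edgeR). Over the 9 S phase genes tested the median log2 fold change was -0.16 in sham against placebo (from -0.55 without GR44 to 0.02 without GR12), -0.04 in PL8177 against placebo (from -0.19 without GR22 to -0.02 without GR15) and 0.06 in PL8177 against sham (from -0.05 without GR12 to 0.34 without GR44). The S phase genes that passed the filter changed with the library left out, from 5 without GR24 to 11 without GR44. These medians are therefore not over the same genes.

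The 5 genes that were higher in PL8177 than in placebo at an unadjusted p were of G2 and mitosis. Kif11 stood at 6.12, 13.7 and 0 for sham, 1.83, 0 and 2.92 for placebo, and 9.22, 9.01 and 9.41 for PL8177 enterocyte nuclei. The 3 PL8177 libraries lay close together and above the measured levels of all placebo libraries, whereas the sham libraries spread over both. The level of 0 in GR23 allows up to 3 UMIs, which is 9.65 CPM there and above all PL8177 levels. The order against GR23 was therefore not resolved, and Kif11 had 96 UMIs in all enterocyte nuclei. The log2 fold change against placebo was 2.26 (SE 0.75, unadjusted p = 0.0106, adjusted p = 0.407, edgeR). Against the same placebo libraries the sham libraries differed by 1.74 (unadjusted p = 0.0555, edgeR). Kif20b, with the levels given above, differed by 1.34 (SE 0.51, unadjusted p = 0.0207, adjusted p = 0.468, edgeR), and its lowest PL8177 library (5.38) lay below the placebo library GR23 (9.65). Top2a differed by 1.34 (SE 0.56, unadjusted p = 0.0322, adjusted p = 0.502, edgeR), but the highest of the 9 levels, 19.3, was that of the placebo library GR23, and without GR24 the difference was 0.86.

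Bub1 stood at 2.58, 2.29 and 2.07 for sham, 1.83, 6.43 and 0.585 for placebo, and 6.34, 6.01 and 2.69 for PL8177. PL8177 and placebo overlapped, and the log2 fold change was 1.66 (SE 0.72, unadjusted p = 0.0396, adjusted p = 0.523, edgeR). Kif23 differed by 0.99 (SE 0.44, unadjusted p = 0.0427, adjusted p = 0.527, edgeR), with GR41 the highest library at 94.5 CPM, and by 0.31 without that library. When nuclei were thinned to 500 UMIs each it was 0.26.

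The remaining genes of G2 and mitosis with most UMIs overlapped between treatments, or nearly so. Cenpf stood at 16.1, 13.7 and 8.29 for sham, 12.6, 57.9 and 8.77 for placebo, and 16.7, 18.5 and 22.8 for PL8177, so that its highest and nearly its lowest level were both of placebo libraries. Kif4a stood at 17.1, 13.7 and 10.4 for sham, 19.4, 32.2 and 21.0 for placebo, and 20.7, 18.3 and 18.8 for PL8177, with all sham libraries below the rest. Its log2 fold change in sham against placebo was -0.49 with an unadjusted p of 0.229 (edgeR). Diaph3 stood at 12.6, 16.0 and 8.29 for sham, 5.50, 25.7 and 13.4 for placebo, and 19.0, 8.76 and 6.72 for PL8177. Ect2 stood at 10.9, 9.14 and 4.14 for sham, 8.12, 16.1 and 9.35 for placebo, and 12.1, 10.8 and 6.72 for PL8177. Both overlapped in all groups, with GR23 the highest. Cenpe, at 6.76, 9.14 and 4.14 for sham, 3.14, 16.1 and 6.43 for placebo, and 15.0, 8.51 and 16.1 for PL8177, differed by 1.20 in PL8177 against placebo (unadjusted p = 0.060, edgeR). Mki67 differed by 0.77 (unadjusted p = 0.154, edgeR).

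Of the 14 genes of G2 and mitosis tested, 13 had a log2 fold change above 0 in PL8177 against placebo, 11 in sham against placebo and 12 in PL8177 against sham. In PL8177 against placebo their median was 0.88, while the median of all genes was -0.01. The median was 0.31 without GR41, 0.45 without GR43 and 0.61 without GR22 or GR24, and at most 0.99 (without GR15). The medians were 0.30 in sham against placebo (from 0.19 without GR22 to 0.53 without GR23) and 0.46 in PL8177 against sham (from 0.31 without GR15 to 0.58 without GR12). The genes of G2 and mitosis that passed the filter also changed with the library left out, from 13 (as without GR41) to 16 (without GR13). The medians without a library are therefore not over the same 14 genes. The summed level was 169 ± 28.1 for sham, 191 ± 93.4 for placebo, and 235 ± 57.7 CPM for PL8177 (SD, n = 3 libraries each). Placebo overlapped with both other groups, since the placebo library GR23 stood at 299 and the other placebo libraries at 142 and 133. All PL8177 libraries lay above all sham libraries, although the lowest PL8177 level (186.8, GR44) and the highest sham level (185.8, GR12) nearly met. The S phase sum was 116 ± 16.1, 164 ± 42.5 and 130 ± 18.9. The sums of T cell, crypt and surface epithelium markers, given above, also differed between these libraries. Their part in the levels of the genes of G2 and mitosis was not tested. All 3 PL8177 libraries lay above all placebo libraries for 6 of the 41 genes (Mcm2, Kif11, Cenpp, Bub1b, Knl1 and Ccna2) and below them for Pcna. Among the 23 tested genes these were 1 and 1, against 4.7% and 14.1% of all genes tested. All sham libraries lay below all placebo libraries for 6 genes (Pcna, Brca2, Ezh2, Kif4a, Cdk1 and Ccna2), 4 of them tested, against 14.3%, and above them for 0, against 5.36%. In PL8177 against sham it was 9 genes above (Mcm2, Pcna, Kif4a, Cenpf, Cenpp, Bub1, Bub1b, Cdk1 and Ccna2), 4 of them tested, against 6.02%, and 0 below, against 6.01%. A level of 0, such as that of Kif11 in GR23 or Pcna in GR15, can leave such an order unresolved.

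Among the tested genes not given above, the S phase genes Brca2, Brip1 and Cdc6 had log2 fold changes of -1.32, -1.06 and 0.36 in sham against placebo and 0.14, -0.39 and 0.07 in PL8177 against placebo. Of the genes of G2 and mitosis, Tpx2 had 1.14 and 1.12, Kif15 0.09 and 0.23, and Aspm 0.00 and 0.50, with unadjusted p above 0.05 in each case (edgeR). The other 18 of the 41 genes did not pass the filter in enterocyte nuclei. They had 8 (Rrm2) to 67 (Mcm6) UMIs over the 9 libraries, and their highest level in any library was 16.1 CPM, that of Foxm1 in GR23. They were the MCM helicase genes Mcm2 to Mcm6, Rrm2, the small subunit of ribonucleotide reductase, Cdt1, which loads the helicase, the kinase and cyclin genes Cdk1, Ccna2 and Ccnb1, and the kinetochore and checkpoint genes Knl1, Ndc80, Nuf2, Cenpp, Bub1b and Ttk, with Anln and Foxm1. Without the filter 0 of the 41 genes was called in any of the 3 comparisons, whereas 51, 8 and 10 genes of all were.

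**Figure D4:**
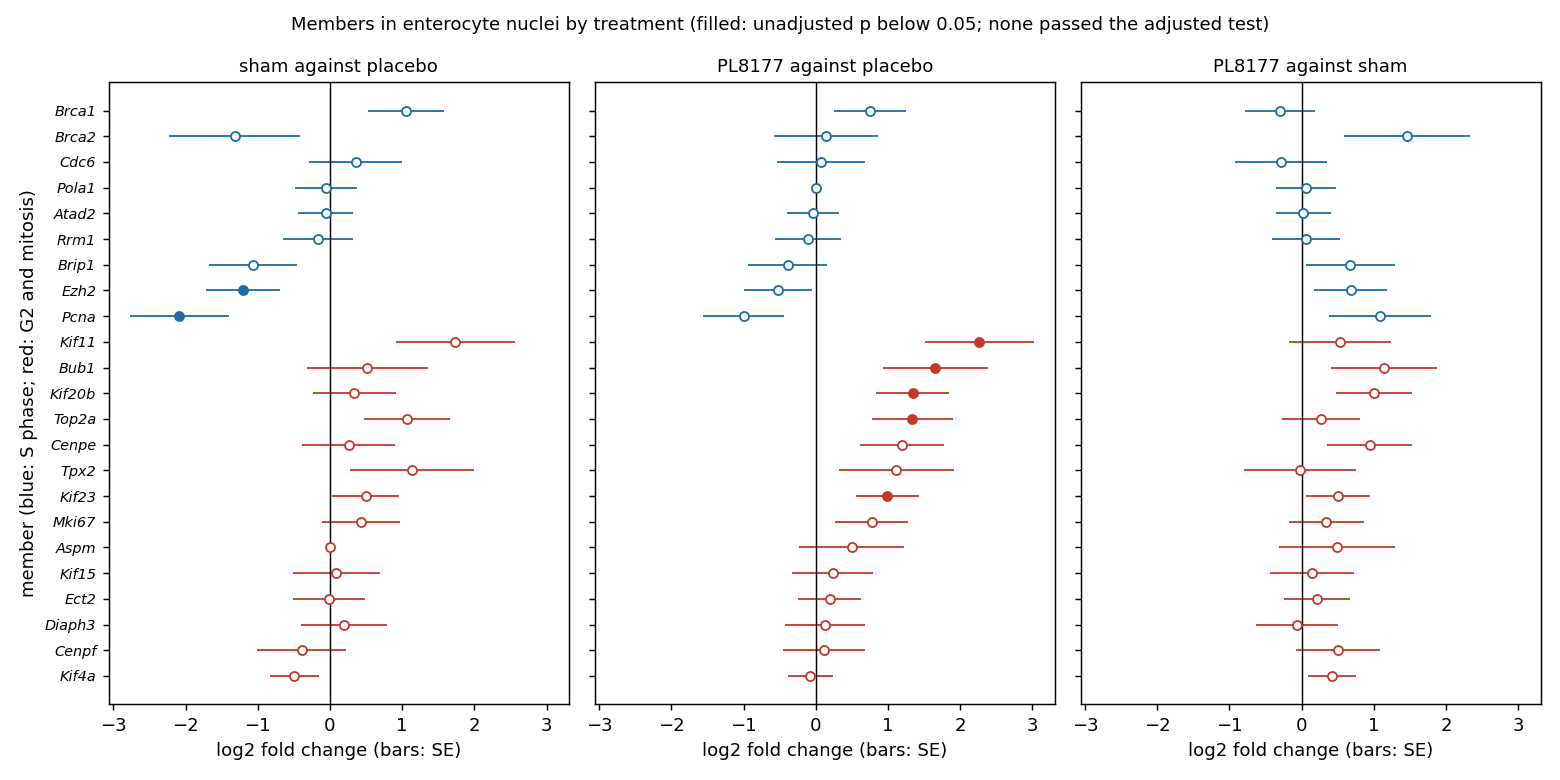
Log2 fold change with standard error of the 23 tested genes in enterocyte nuclei, for sham against placebo, PL8177 against placebo and PL8177 against sham (S phase in blue, G2 and mitosis in red, no bar where p was above 0.99). Filled points had an unadjusted p below 0.05, 2 in the first panel, 5 in the second and 0 in the third, and none passed the adjusted test.

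The share of enterocyte nuclei with UMIs of at least 2 genes of G2 and mitosis was 7.64%, 0.726% and 0.706% in the sham libraries, 4.83%, 2.96% and 2.06% in placebo and 6.30%, 6.40% and 2.46% in PL8177. The 4 libraries with the deepest nuclei (GR12, GR22, GR43 and GR41) had the 4 highest shares. GR12, at 2331 UMIs per median nucleus, had 71 such nuclei of 929, and GR13, at 437, had 6 of 827. After thinning to 500 UMIs per nucleus, which left out 850 sham, 489 placebo and 662 PL8177 nuclei, the shares were 1.31%, 0.615% and 0.268% for sham, 0.718%, 1.06% and 0.389% for placebo, and 1.47%, 1.30% and 1.39% for PL8177. The 3 PL8177 shares were then above the placebo shares, but their exact 95% binomial intervals (Clopper-Pearson, counting error only), such as 0.761% to 2.55% in GR41 and 0.128% to 3.77% in GR23, overlapped, and the highest sham share lay among them. At 1000 UMIs the sham and placebo shares ran from 0.792% to 2.62% and the PL8177 shares from 2.48% to 2.88%, again with a sham library (2.62%, GR12) among them. For the S phase genes the thinned shares were 0.109%, 0.615% and 0.536% for sham, 0.399%, 0.529% and 0.584% for placebo, and 0.367%, 0.767% and 0% for PL8177, where 0 of 577 nuclei allows a share of up to 0.520% when 3 nuclei are taken as the one-sided limit, and the exact two-sided interval used here ends at 0.637%. The part of free RNA in these shares was not tested.

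**Figure D5:**
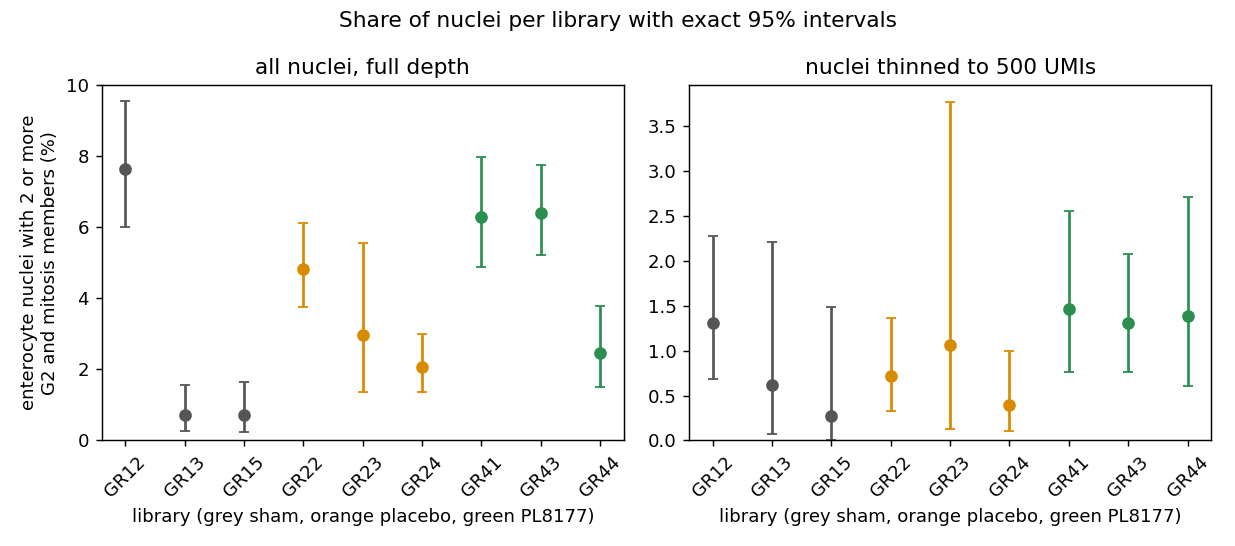
Share of enterocyte nuclei (percent) with UMIs of 2 or more genes of G2 and mitosis in each library, at full depth (left) and thinned to 500 UMIs (right), with exact 95% intervals (sham grey, placebo orange, PL8177 green). At full depth the range is 0.706% to 7.64%, and after thinning it is 0.268% to 1.47% with intervals that overlap.

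Of the cell cycle genes outside the list, 0 of 81 tested were called between treatments in enterocyte nuclei by edgeR. At an unadjusted p below 0.05, 7 were higher and 0 lower in PL8177 against placebo, 6 higher and 2 lower in sham against placebo, and 5 higher and 0 lower in PL8177 against sham, to be read against the shares of all genes given above for each comparison. In PL8177 against placebo the smallest unadjusted p among genes above 0 were those of Fzr1, an activator of the anaphase-promoting complex (log2 fold change 1.12, unadjusted p = 0.0029, edgeR), Cit, the citron kinase of cytokinesis (1.57), and Iqgap3 (1.88), and below 0, among others, those of Ncapd3 (-0.68) and Helb (-0.56). In sham against placebo they were Wee1 (0.97), Wdhd1 (1.02) and Fzr1 (0.87) above 0, and Dut (-1.07), Ncapd3 (-1.05) and Cdkn1a (-0.57) below 0. In PL8177 against sham they were Cdkn1a, the gene of the cycle inhibitor p21 (0.81), Smc2 (1.27) and Cdc25a (0.62) above 0, and Kif2c (-1.19), Wdhd1 (-0.66) and Rfc2 (-0.94) below 0. None of the genes named below 0 in the comparisons of PL8177 had an unadjusted p below 0.05 (edgeR).

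In T cell nuclei only Cenpf, Ezh2, Pola1 and Top2a of the 41 genes passed the filter when treatments were compared. None was called, and 0% of all 1828 genes tested were. No unadjusted p of the 4 genes was below 0.05, where the background higher and lower was 0.875% and 4.05% in sham against placebo, 0.438% and 0.547% in PL8177 against placebo and 0.711% and 0.492% in PL8177 against sham, and DESeq2, which tested all 41, called 0 as well. Without GR23, 1 of the 41 genes was tested. The smallest unadjusted p was that of Top2a in sham against placebo (0.266, adjusted p = 0.963, edgeR), whose levels are given above. Cenpf stood at 285, 0 and 76.3 for sham, 205, 25.7 and 224 for placebo, and 166, 149 and 48.9 for PL8177 T cell nuclei, and Ezh2 at 149, 248 and 38.1, 93.2, 25.7 and 158, and 0, 215 and 195. The groups overlapped for both genes. The T cell nuclei with UMIs of at least 2 genes of G2 and mitosis made up 37.8%, 15.8% and 29.6% of the sham libraries, 19.2%, 3.36% and 12.1% of the placebo libraries and 27.3%, 17.9% and 14.3% of the PL8177 libraries. Thinned to 500 UMIs the share was 2.03% in GR23, with 492 nuclei kept. It was 9.68% to 36.4% in the other libraries, which kept only 5 (GR13) to 73 (GR12) nuclei. At 1000 UMIs the share ran from 0% to 37.5% over all 9 libraries, of which GR13 kept 1 nucleus. The difference of the treatment effects between the cell types, tested as an interaction, was called for 0 of 32 genes and 0% of all genes tested. At an unadjusted p below 0.05 it gave Foxm1 and Brca2 for sham (Foxm1: unadjusted p = 0.000885, adjusted p = 0.468, edgeR) and Foxm1 for PL8177, all of them above 0 and none below, against 1.2% and 1.14% of all genes above and 5.67% and 3.07% below. Without GR23 it gave the same 2 genes for sham, but for PL8177 it gave 0 above and 5 below 0 (Cenpe, Top2a, Kif20b, Cenpf and Mki67, from -3.07 for Cenpe to -1.74 for Cenpf, adjusted p = 1 for each, edgeR), with 22 of 34 genes below 0, against 117 above and 206 below of all 8792 genes. The 2 for sham became 4 without GR15 or GR24, 3 without GR22 and 1 without GR13, and the 1 for PL8177 became 2 without GR24 and 0 without GR41. The shares of all genes in these last fits are not given here, so these counts are not set against a background. Foxm1 rested on 13 T cell and 27 enterocyte UMIs. In the GRCr8 annotation 21 of the 41 genes overlap another gene model and 11 a protein-coding one, among them Ezh2, Kif11, Kif4a, Brip1 and Diaph3, and reads in such stretches may belong to either gene.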

How the data were processed

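Nuclei were isolated from rat colon and sequenced in droplets. The authors aligned reads with Cell Ranger 6.0.1 to Rnor 6.0 with introns included, ran CellBender against empty droplets and artifacts, and assigned cell types from Seurat 4.0.3 clusters. The authors deposited whole UMI counts per gene and nucleus for each cell type and treatment. The placebo T cell table held 15108 complete genes and the others 17388, so fits with T cells used the shared 15108.

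Counts were summed per library tag and tested with edgeR 4.0.16 (quasi-likelihood, TMM, filterByExpr) in R 4.3.3, with Benjamini-Hochberg adjustment over all genes tested. The T cell against enterocyte fit held the library as a block, since both cell types came from the same library. Alternatives were DESeq2 1.42.0, library totals, no filter, nuclei with at least 500 genes, doublets left out, thinning and each library left out. Scrublet, in scanpy 1.11.5, marked 60 of 9800 nuclei (0.612%) as doublets, which were kept. No barcode was in both cell types of a library. Simulated counts were run only for PL8177 against placebo in enterocyte nuclei and for T cell against enterocyte nuclei. They gave all libraries the same gene means apart from the genes changed on purpose, and their outcome is not given here. Treatments shared no replicate numbers.

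The genes and lists were chosen with earlier results of these data known. Values in every library were given for Mki67, Top2a, Pcna and Cdk1, for the 5 S phase and 8 G2 and mitosis genes with most enterocyte UMIs and for those with an unadjusted p below 0.05 in an enterocyte comparison, and for Knl1 also, which was chosen after its values were seen. Results of 3 genes outside the list are not reported here.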

Additional observations from a re-analysis of the deposited data

How the results depend on the processing

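None of the 32 genes tested between T cell and enterocyte nuclei changed direction under the alternatives tried, apart from Kif23, which was not called and stood at -0.50 among T cell marker nuclei and was below 0 there, and with no filter, when GR23 was also left out. The count of genes called was 27 with and without the replicate block (no replicate block: 27), 29 with library totals, which were added after seeing the data, and 21 to 30 when 1 library was left out. Leaving GR23 out of the shares of T cell UMIs and of the counts of cell cycle genes outside the list was likewise chosen after seeing the data, as were leaving out GR12 with GR23 for the B cell markers and leaving out GR23 together with the filter, with TMM or among T cell marker nuclei. Between treatments 0 genes of the list were called under every alternative that tested any. In T cell nuclei, thinning and the choice of T cell marker nuclei left no gene to test, and without GR43 none passed the filter.

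The share of nuclei with at least 2 genes depended on depth. For G2 and mitosis the mean over libraries for sham, placebo and PL8177 was 3.02%, 3.28% and 5.05% at full depth, 0.363%, 0.436% and 0.842% at 300 UMIs per nucleus, 0.731%, 0.722% and 1.39% at 500, 1.68%, 1.24% and 2.71% at 1000, and 0.471%, 0.68% and 2.11% where 3 genes were asked for, so that sham stood below placebo at full depth and above it at 500 and 1000. For S phase it was 1.55%, 2.79% and 2.70% at full depth, 0.0492%, 0.227% and 0.345% at 300, 0.42%, 0.504% and 0.378% at 500, 0.125%, 0.919% and 1.01% at 1000, and 0.215%, 0.668% and 0.856% where 3 genes were asked for. Averaged over nuclei rather than summed, the levels were 214, 276 and 335 CPM in sham, placebo and PL8177 for G2 and mitosis, and 143, 215 and 201 for S phase. A T cell library held 8070 to 779009 UMIs, so a level of 0 there allows up to 3.85 to 372 CPM.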
